A study of Homo sapiens with 4 samples.

Results

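The 10 genes described here, NRG1, ACBD4, BAIAP2, BCL6, APBB2, PCBD2, ARHGAP22, IRS1, NRTN and PTMA, are genes with at least 1 CTCF peak on a raised local background, beside another peak inside or just outside the gene. They were listed by name out of 19970 protein-coding genes on chromosomes 1 to 22 and X, and were taken as the whole gene with 1 kb on each side. Inside them lay 51 of the 42462 peaks of the list, and a further 56 peaks lay outside, in the 100 kb beyond on each side. The genes were chosen by their local background in this same library, that is, the tag density of the surrounding 10 kb expressed as normalised tags per peak width. Raised values of it inside these genes are therefore a description and not a finding.

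The study mapped the binding of CTCF in 4 samples by ChIP-seq, the sequencing of DNA pulled down with an antibody. All came from MDA-MB-435, a human melanoma line, grown in DMEM with 10% serum. The mitotic group was 2 samples of cells held in thymidine (2 mM, 24 h), released for 3 h, arrested in nocodazole (100 ng/mL, 16 h) and collected by shake-off, with a custom antibody against CTCF phosphorylated at pT431. The asynchronous group was 2 samples of asynchronously growing cells with a rabbit antibody against CTCF. Only the peak list of asynchronous replicate 1, from a library of 19210460 tags, was analysed here, so the groups were not compared, no value has a replicate check, and no test was possible.

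CTCF is a zinc finger protein that binds a long, GC-rich DNA motif and, with the ring-shaped cohesin complex, anchors chromatin loops and marks the borders of domains. Its sites are often found at gene starts, and several sites in a row can form a stronger border than one alone. The caller scored each peak against the tags within the surrounding 10 kb, with no control library named. Tags of a second peak within that distance therefore count as background for the first.

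The genes belong to different functions. NRG1 and NRTN encode secreted ligands: neuregulin binds the ERBB receptors, and neurturin acts through GFRA2 and RET. IRS1, the docking protein of the insulin and IGF receptors, APBB2, an adaptor that binds the tail of the amyloid precursor protein, BAIAP2, a membrane-bending scaffold of the actin cytoskeleton, and ARHGAP22, which switches off RAC1, act in signalling. BCL6 is a transcriptional repressor of germinal centre B cells and PTMA encodes prothymosin alpha, a small acidic nuclear protein. PCBD2 encodes a pterin dehydratase and cofactor of HNF1 factors, and ACBD4 an acyl-CoA binding protein that links peroxisomes to the endoplasmic reticulum. A peak list holds no expression level, so neither the genes' activity nor the labelled cell type could be checked.

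Promoter windows that a peak overlapped are shown for the 5 genes in which that peak stood on a raised local background. The windows run from 250 bases before to 50 bases after an annotated gene start, on the gene's strand, from RefSeq (GRCh38.p14). Capitals mark letters that match a 12-base CTCF core pattern or the shorter CAGGGGGC on either strand, and matches of both can overlap. The shorter pattern was chosen after the sequences had been seen.
ACBD4, internal start, chr17:45135437-45135736, plus strand: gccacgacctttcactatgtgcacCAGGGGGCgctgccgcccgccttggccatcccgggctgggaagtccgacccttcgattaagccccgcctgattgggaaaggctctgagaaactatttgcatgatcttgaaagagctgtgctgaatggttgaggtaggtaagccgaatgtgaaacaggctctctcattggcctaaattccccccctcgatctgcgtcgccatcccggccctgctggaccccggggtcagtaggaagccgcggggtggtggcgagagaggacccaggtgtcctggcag
BAIAP2, internal start, chr17:81097361-81097660, plus strand: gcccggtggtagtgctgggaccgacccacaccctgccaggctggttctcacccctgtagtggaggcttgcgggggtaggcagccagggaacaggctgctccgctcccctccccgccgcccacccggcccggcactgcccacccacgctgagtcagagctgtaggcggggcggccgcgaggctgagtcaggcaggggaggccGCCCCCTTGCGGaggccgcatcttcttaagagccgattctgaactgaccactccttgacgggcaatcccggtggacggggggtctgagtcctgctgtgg
APBB2, chr4:41214493-41214792, minus strand: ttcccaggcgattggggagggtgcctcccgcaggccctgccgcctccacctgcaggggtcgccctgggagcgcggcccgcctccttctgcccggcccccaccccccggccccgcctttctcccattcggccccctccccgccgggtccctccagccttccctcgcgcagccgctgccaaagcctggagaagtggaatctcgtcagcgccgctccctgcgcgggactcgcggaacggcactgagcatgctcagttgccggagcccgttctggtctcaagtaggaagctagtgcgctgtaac
ARHGAP22, chr10:48656216-48656515, minus strand: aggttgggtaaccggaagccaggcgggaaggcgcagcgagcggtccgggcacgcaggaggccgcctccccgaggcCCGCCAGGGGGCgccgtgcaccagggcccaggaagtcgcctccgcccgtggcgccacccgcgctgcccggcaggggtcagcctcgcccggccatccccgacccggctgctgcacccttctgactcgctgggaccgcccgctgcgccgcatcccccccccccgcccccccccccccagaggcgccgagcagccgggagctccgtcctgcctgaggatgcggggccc
IRS1, chr2:226799771-226800070, minus strand: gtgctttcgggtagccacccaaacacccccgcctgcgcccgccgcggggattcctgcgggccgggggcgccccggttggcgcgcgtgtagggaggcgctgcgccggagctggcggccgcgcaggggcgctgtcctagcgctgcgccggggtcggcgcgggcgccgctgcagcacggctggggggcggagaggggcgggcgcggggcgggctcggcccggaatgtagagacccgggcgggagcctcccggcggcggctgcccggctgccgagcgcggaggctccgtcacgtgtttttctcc

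The RefSeq table held 17 promoter windows of 9 of the 10 genes, and a peak overlapped 6 of them by at least 100 bases, in 5 genes. Over all 34961 windows of the table, 8.91% (8.62 to 9.22, Clopper-Pearson 95% interval) were overlapped in this way. The 10 genes were chosen by values at their peaks, so windows with a peak were favoured by the choice. The shares of all windows, here and below, are given for scale, and nothing is read from the differences. The 12-base pattern lay in 5 of the 17 windows, and in 3 of the 6 with a peak, against 10.6% (10.3 to 10.9) of all windows and 30.4% (28.7 to 32.0) of all windows with a peak. The pattern CAGGGGGC, chosen from these same sequences, lay in the ACBD4 and ARHGAP22 windows shown, against 4.28% of all windows and 12.8% of those with a peak. In these 2 genes it sat 6 and 28 bases from the peak centre, under the strongest peak of each gene. In the BAIAP2 window shown the longer pattern, on the reverse strand, was 6 bases from the peak centre. At the outer BAIAP2 start, not shown, it was 332 bases from the centre of the peak of 11.2 normalised tags, outside that peak. The APBB2 and IRS1 windows held neither pattern, which says only that these letters were not in the windows. In ARHGAP22 the matches of both patterns overlap each other.

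One ranking of the genes divides the highest local background inside by the median of the 6 closest peaks beyond the gene. How each gene entered the list is not recorded beyond its name. Among genes with at least 3 peaks, this ratio was 8.31 in NRG1, 7.19 in ACBD4, 6.0 in BAIAP2, 5.88 in BCL6, 5.71 in IRS1, 5.63 in APBB2 and 5.61 in PCBD2, at ranks 5 to 11. Below them came SLCO3A1 at 5.30, which is not among the 10. ARHGAP22 was at rank 16 with 4.76, between RUVBL2 at 4.84 and ZNF219 at 4.71, and NRTN was at rank 32 with 4.08, just above PRICKLE4 at 4.07. PTMA held 2 peaks and could not be ranked. Divided by the median of all peaks in the 100 kb flanks instead, the ranks differed, with 4 for NRG1, 16 for NRTN and 184 for IRS1. The 10 genes are thus a named list and not every gene past a line.

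In the ligand gene NRG1 (chromosome 8, 31639245 to 32774046, hg38), the raised background was held by 1 pair of peaks in a gene of 1134.8 kb. The gene held 11 peaks. The pair, starting at 32547886 and 32549036 and 1.15 kb apart, had 83.8 (71.4 to 97.8) and 98.6 (84.9 to 113) normalised tags, that is, tags scaled to a library of 10000000, with Poisson 95% intervals that cover counting error only. Their local background was 9.38 and 9.23. At the other 9 peaks it ran between 0.915 and 2.83, with 12.0 to 45.0 normalised tags. Within 100 kb outside the gene there was 1 peak, with 9.11 normalised tags on a background of 0.725. The ratio of medians, 1.57 inside to 0.725 outside or 2.17-fold, therefore rests on that single outside peak. It was 1.64 with flanks of 200 kb and 1.39 against the 6 closest outside peaks, below 2-fold in both. A weaker pair 1.74 kb apart elsewhere in the gene had backgrounds of 2.04 and 2.83.

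In the other ligand gene, NRTN (chromosome 19, 5805067 to 5828324), a strong and a weaker peak flanked the gene start. The strong one lay 0.904 kb before the start with 168.1 normalised tags (150 to 188) on a background of 3.91. The weaker one lay 0.941 kb after the start with 38.8 normalised tags on a background of 8.57, the higher of the pair. The last peak, 18.6 kb into the gene, had 24.7 normalised tags on 1.63. The 4 outside peaks had backgrounds between 1.44 and 2.48, so the last inside peak fell among them and the groups overlapped. The medians were 3.91 inside and 1.69 outside, a ratio of 2.31, while median tags were lower inside, at 38.8 against 45.55 outside.

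Among the signalling genes, IRS1 (chromosome 2, 226731312 to 226799820) had a run of peaks across its start. Background was 7.03 at the peak over the start, 5.88 at 2.80 kb into the gene, 2.97 at 8.18 kb and 1.27 at the far end, with 35.9, 51.0, 15.1 and 11.7 normalised tags. It was thus high at the start and low at the far end of the gene. Outside lay 2 peaks, one 2.89 kb before the start with a background of 3.99 and one 13.5 kb before it with 1.03. Both lie within RHBDD1, the neighbouring gene, and their range overlapped that of the inside peaks. The medians were 4.43 inside and 2.51 outside, a ratio of 1.76. The ratio was 3.86 with a margin of 5 kb, 3.77 with flanks of 200 kb, 4.28 with outside peaks within 10 kb left out and 3.60 against the 6 closest outside peaks, past 2-fold in all 4. IRS1 was also the gene with the least focused peaks: the median focus ratio, a fraction that is higher where tags sit tightly about the peak, was 0.754 inside and 0.840 outside.

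APBB2 (chromosome 4, 40810027 to 41214542) held 10 peaks, and the background was highest at the pair beside its start. The peak just before the start had 101.0 normalised tags (87.3 to 116) on 4.22, and the peak 1.77 kb into the gene had 31.8 on 6.78. The other 8 peaks, between 234 and 373 kb into the gene, had backgrounds of 1.41 to 3.39. The 5 outside peaks had 0.887 to 1.49, overlapping only the lowest inside peak. The medians were 2.25 inside and 1.23 outside, a ratio of 1.82.

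BAIAP2 (chromosome 17, 81035151 to 81117434) had its raised background in the body of the gene, at an internal annotated start. The peak there, 62.4 kb in, had 49.5 normalised tags (40.0 to 60.5) on a background of 11.6. A stronger peak 4.33 kb farther on had 209.0 (189 to 230) on 5.70. Peaks at the outer start and 5.88 kb into the gene had 11.2 and 31.2 normalised tags on 1.73 and 2.43, within the 1.09 to 2.95 of the 9 outside peaks. The medians were 4.07 inside and 1.65 outside, a ratio of 2.47, which was 1.53 with a margin of 5 kb.

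ARHGAP22 (chromosome 10, 48429831 to 48656265) differed in that its highest background lay just outside the gene. The peak over the gene start had 210.6 normalised tags (191 to 232) on a background of 5.92. A peak 2.18 kb before the start, counted as outside, had 51.8 on 11.7. The other 5 inside peaks had 1.56 to 3.05, and the other 4 outside peaks 0.932 to 1.32. The ratio of medians was 1.71 (2.00 inside, 1.17 outside). It was 0.311 with flanks of 50 kb and 0.853 with means in place of medians, so its direction depends on how the high outside peak is counted.

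BCL6 (chromosome 3, 187721377 to 187745468), the repressor gene, held 4 peaks of similar height in a run between 3.27 and 6.48 kb into the gene. They had 63.2, 79.4, 69.8 and 50.8 normalised tags in order of position, 0.929 to 1.18 kb apart, on backgrounds of 10.8, 10.5, 11.3 and 11.9. The remaining peak, 23.3 kb in, had 8.07 normalised tags on 1.86, below all 4 outside peaks (1.94 to 3.39). The medians were 10.8 inside and 2.34 outside, a ratio of 4.63, whereas median tags were 63.2 inside and 71.7 outside. The run (50.8 to 79.4) was thus similar in tags to the 3 tallest outside peaks, of 62.2, 81.2 and 84.3 normalised tags. None of these 3 had another peak within 5 kb.

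PTMA (chromosome 2, 231708525 to 231713551), only 5.027 kb long, held 2 peaks, with 69.0 (58.0 to 82.0) and 75.0 (63.2 to 88.3) normalised tags on backgrounds of 12.4 and 8.48. Its flanks had the highest median background of the 10 genes. Peaks 1.36 kb before its start and 6.92 kb after it, past its end, had 6.94 and 7.51, and a group of 3 peaks 30.7 to 35.4 kb before the start had 5.77, 6.58 and 7.41. The 12 outside peaks ranged between 1.55 and 7.51, all below the 2 inside peaks. The medians were 10.4 inside and 3.12 outside, a ratio of 3.34.

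PCBD2 (chromosome 5, 134905131 to 134962644) had a pair of peaks at its start. The peak 0.424 kb before the start had 115.6 normalised tags (101 to 132) on 3.72, and the peak 0.639 kb after it had 30.2 on 6.83. The last peak, 12.1 kb in, had 13.5 on 1.38, within the 1.19 to 1.88 of the 3 outside peaks. The medians were 3.72 inside and 1.24 outside, a ratio of 2.99.

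ACBD4 (chromosome 17, 45131597 to 45144176) had the highest values of the 10 genes. Its 3 peaks, 0.426, 1.76 and 3.87 kb into the gene, had 101.5 (87.8 to 117), 86.7 (74.2 to 101) and 246.0 (225 to 269) normalised tags on backgrounds of 17.5, 18.1 and 12.0. The 11 outside peaks had backgrounds between 2.01 and 5.35, all below the inside peaks. The medians were 17.5 inside and 2.74 outside, a ratio of 6.39. The first of the 3 peaks also lies within PLCD3, a neighbouring phospholipase gene. With 1 kb on each side, PLCD3 held the peak of highest background, 18.1, as well, and stood at rank 10 over the flanks, just below ACBD4. These peaks therefore cannot be assigned to ACBD4 alone.

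**Figure D1:**
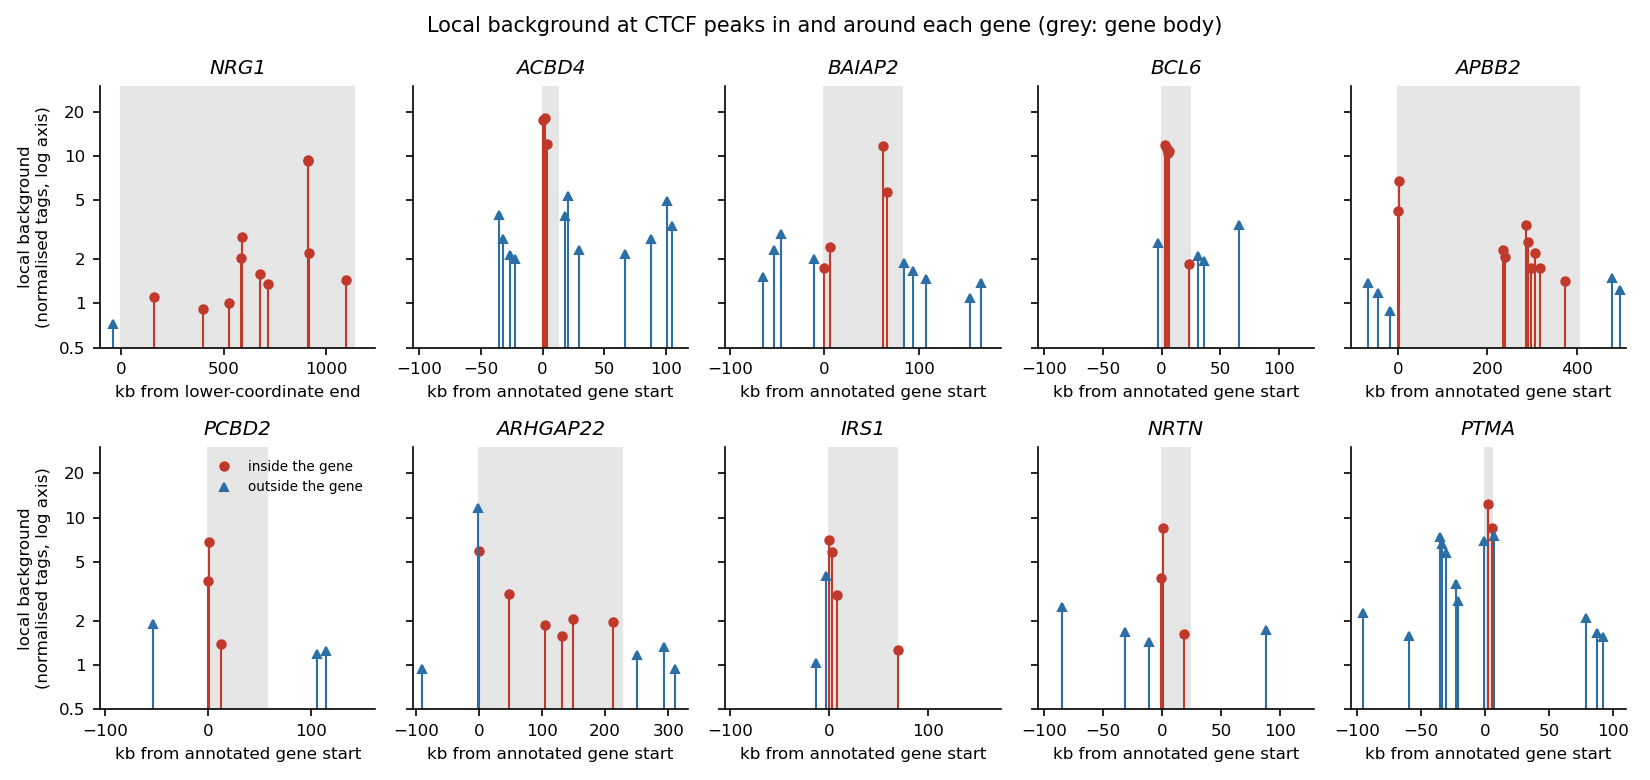
Local background (normalised tags, log axis) at each CTCF peak against its distance from the annotated gene start in kb (NRG1, whose strand was not in the tables used: from the lower-coordinate end), for peaks inside (red circles) and outside (blue triangles) each gene, with the gene body in grey. High values stand in narrow groups: at the start in ACBD4 (up to 18.1), PCBD2, NRTN, IRS1, APBB2 and ARHGAP22, near it in BCL6 and PTMA, and inside the gene in NRG1 and BAIAP2.

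In 6 of the 9 genes with at least 3 peaks inside, the median local background was at least 2-fold higher inside than outside, against 4.45% of 2761 protein-coding genes with as many peaks. The genes were chosen by local background in this same library, so nothing is read from the difference. The median ratio was 2.31 over the 9 genes and 1.01 over all 2761. The inside and outside ranges did not overlap in 2 of the 9, NRG1 with its single outside peak and ACBD4, against 7.14% of all genes. In PTMA, which had too few peaks to be counted, they did not overlap either.

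Tag counts per peak enter the local background by division and are not independent of the choice. The median normalised tags were at least 1.5-fold higher inside in 5 of the 9 genes, against 19.3% of all genes. These were ACBD4 (3.93-fold, 101.5 inside and 25.8 outside), NRG1 (2.37), BAIAP2 (2.04), PCBD2 (1.84) and APBB2 (1.73). In BCL6 and NRTN the ratio was below 1, at 0.881 and 0.852. ARHGAP22 had 1.45 and IRS1 1.32.

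**Figure D2:**
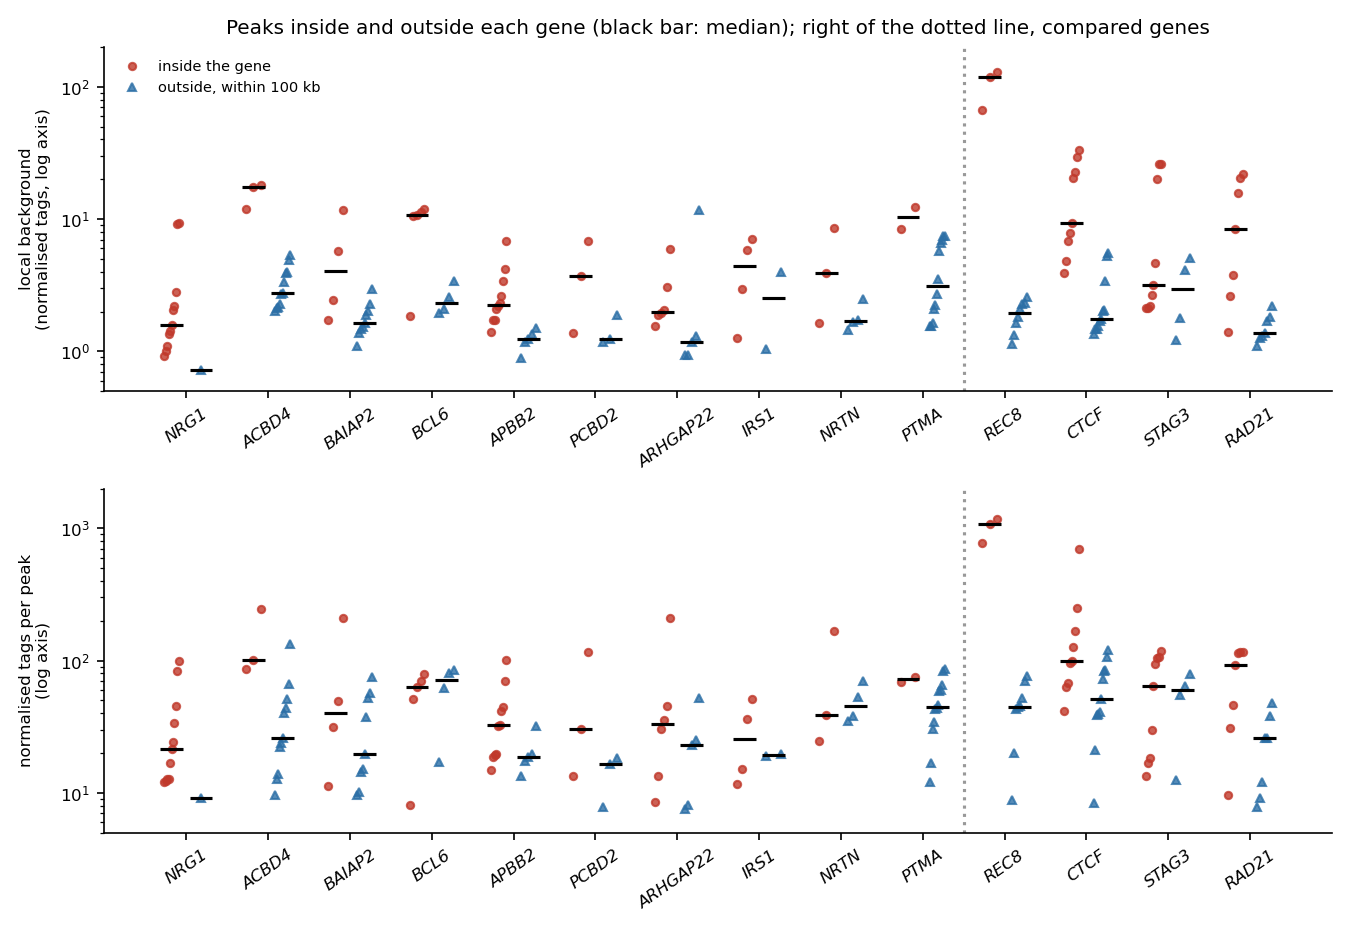
Local background (top) and normalised tags per peak (bottom), both on log axes, for every peak inside (red circles) and outside within 100 kb (blue triangles) each gene, with medians as black bars and REC8, CTCF, STAG3 and RAD21 right of the dotted line. Within most genes the inside peaks divide into a high and a low group (NRG1 between 0.915 and 9.38), and in ARHGAP22 the highest value, 11.7, is an outside peak.

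Close neighbours were then counted. Tags of a neighbour within 5 kb are part of the local background that chose the genes, so these counts are a description and support nothing further. Of the 51 inside peaks, 28 (54.9%, 40.3 to 68.9) had another called peak within 5 kb, as did 17 of the 56 outside peaks (30.4%, 18.8 to 44.1) and 15.9% (15.5 to 16.2) of the other 42411 peaks of the list. Of the 19 inside peaks with a local background of 5 or more, 19 had such a neighbour, as did 566 of 619 such peaks in the whole list (91.4%, 88.9 to 93.5). The highest-background peak of each of the 10 genes had at least 1 neighbour within 5 kb. Among the 9 genes with at least 3 peaks this was 9 of 9, against 36% of all 2761 genes.

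The amount that a neighbour adds could be measured over the whole list. At 13627 isolated peaks, with no other peak within 30 kb, the median local background was 1.28. At 262 peaks with a single neighbour of 60 or more normalised tags within 5 kb and no other within 20 kb, it was 5.10, or 0.0487 of background for each normalised tag of the neighbour. At 994 peaks with such a neighbour 5 to 20 kb away it was 1.64, or 0.00427 per tag. The added background was nearly level between 1 and 5 kb (0.0498 to 0.0471 per tag) and dropped to 0.00729 between 5 and 6 kb, the half-width of the caller's local region. A background predicted for each peak was then set at 1.28 plus 0.0487 times the tags of its called neighbours within 5 kb. The peak's own strength does not enter it. Over the other peaks of the list, the median local background was 1.31 at 6 to 20 normalised tags and 1.57 at 20 to 60. It was 2.21 at 60 to 120 and 2.97 at 120 to 300. Ratios to the prediction at strong peaks are thus not set against peaks of like strength.

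This prediction was set beside the highest-background inside peak of each gene, so the grouping that follows rests on 1 peak per gene. In ACBD4 the highest background was 18.1 observed and 18.2 predicted, from 2 neighbours with 347.5 normalised tags together. In BCL6 it was 11.9 and 11.6, in BAIAP2 11.6 and 11.5, in PCBD2 6.83 and 6.91, in APBB2 6.78 and 6.2, and in NRTN 8.57 and 9.47. In these 6 genes the observed value was 0.905 to 1.09 times the predicted one. In 4 genes it was farther above: 12.4 observed and 9.12 predicted in PTMA (1.36 times), 7.03 and 4.69 in IRS1 (1.5), 9.38 and 6.08 in NRG1 (1.54), and 5.92 and 3.80 in ARHGAP22 (1.56). In some genes the grouping also depends on which peak of a pair is taken. In BAIAP2, APBB2, PCBD2 and NRTN it was the weaker peak, and the stronger one stood at 1.55, 1.49, 1.35 and 1.23 times. In ARHGAP22 it was the stronger peak, and the weaker one, just outside the gene, stood at 1.01 times. In NRG1 the other peak of the pair stood at 1.72 times, above the one taken. In IRS1 the peak 2.80 kb into the gene stood at 1.94 times, and the outside peak 2.89 kb before the start at 1.32 times. Over all 6765 peaks with a neighbour within 5 kb, the median of observed over predicted was 0.988 and the central 95% ran between 0.683 and 1.47. The values of IRS1, NRG1 and ARHGAP22 lay above that range, as did the stronger peaks of BAIAP2 and APBB2 and the values of 1.72 and 1.94 in NRG1 and IRS1. The genes were chosen by high local background and the highest peak of each was taken, which favours high ratios. Nothing is therefore read from their place in the range. In IRS1 the peak 8.18 kb into the gene had 2.32 times the predicted background. It had no called peak within 5 kb, but one of 51.0 normalised tags lay just beyond, 5.38 kb away. In ARHGAP22 the peak 48.0 kb in, with its nearest called peak 48.1 kb away, had 2.38 times. Outside peaks without a called neighbour reached similar values, 2.65 times beside BCL6 and 2.31 times beside BAIAP2. With the measured background of neighbours taken off, an alternative chosen after the data were seen, none of the 6 genes past 2-fold was past it. Their ratios were then 0.598 in ACBD4, 0.675 in BCL6 and 0.962 in NRTN, below 1, and 1.11 in PCBD2, 1.26 in BAIAP2 and 1.86 in NRG1, while IRS1 had 2.01. Over all genes, 0.398% were past 2-fold in that setting. With the neighbours' tags taken off as spread evenly over 10 kb, a smaller correction, ACBD4 had 2.57, BCL6 1.76 and NRTN 1.51, and 4 of the 9 genes were past 2-fold, against 0.833% of all genes. The 2591 candidate peaks that the caller removed by its local filter are not in the list, and their tags do not enter the prediction.

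**Figure D3:**
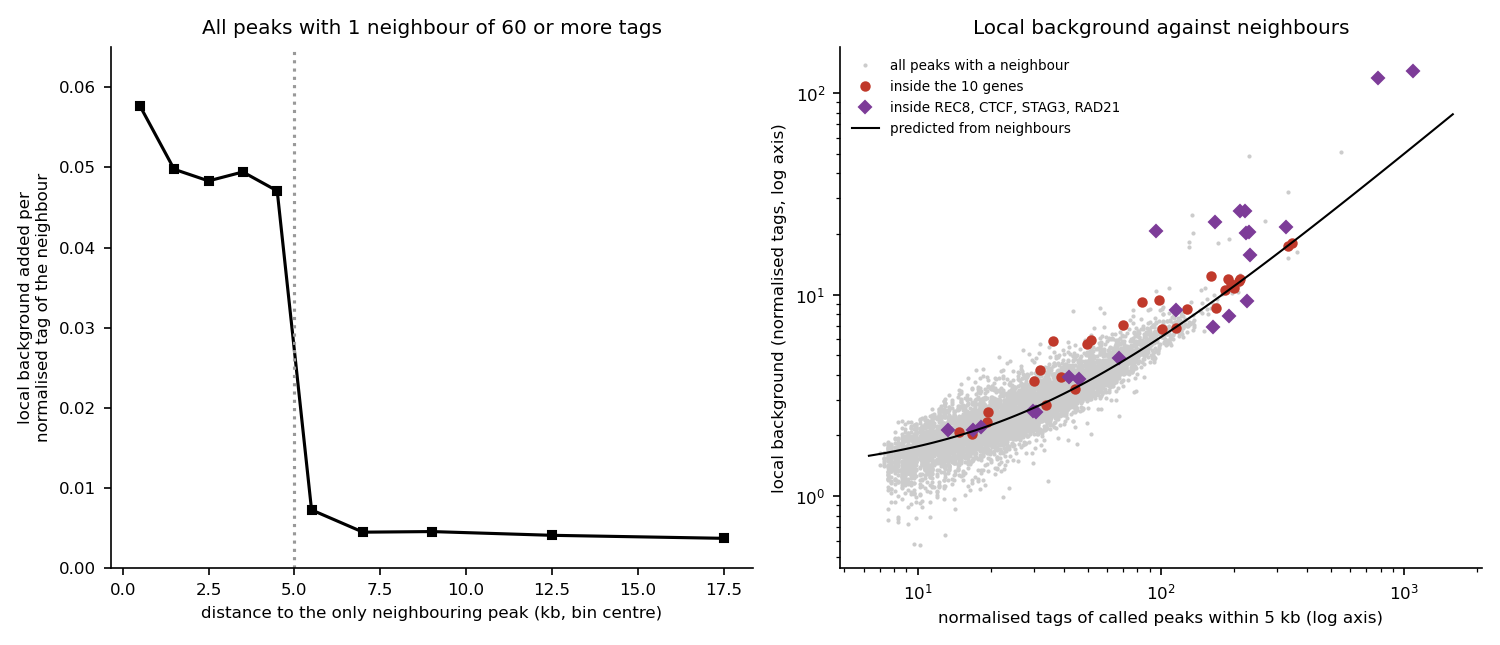
Left, local background added per normalised tag of the only neighbouring peak, by distance in kb (medians in bins), with a fall at 5 kb. Right, local background against the summed normalised tags of called peaks within 5 kb (both log axes), only for peaks with such a neighbour. All such peaks of the list are grey, those inside the 10 genes red and those inside REC8, CTCF, STAG3 and RAD21 purple. The line is the prediction, and ACBD4, at 18.1 and 17.5, lies on it. The CTCF peak of highest background, 33.1, has no such neighbour and is not drawn.

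Position along the gene was not itself a criterion of the choice, but the peak counted is the one with the value that chose the genes. It had a close neighbour in 9 of 9 genes, against 36% of all genes, so the peaks set side by side are unlike in more than position. The highest-background peak lay within 5 kb of the annotated gene start in 7 of the 8 genes with at least 3 peaks and a strand in the table, against 30% of 2258 such genes. BAIAP2 was the exception, with its peak at an internal annotated start. In PTMA, not counted here, the peak lay 1.91 kb into the gene. The difference between 7 of 8 and 30% was not tested, and nothing is read from it.

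The peaks inside the 10 genes were also described by their focus and their repeated tags. Their focus ratio had a median of 0.856 and ran between 0.692 and 0.925, against a median of 0.856 at the outside peaks and 0.847 over the other peaks of the list. Set against the outside peaks of each gene, the median focus ratio was lower inside by 0.05 or more in 1 of the 9 genes, IRS1. This held in 21.3% of all genes. The clonal fold, the caller's ratio of expected to observed distinct tag positions, was 0.73 to 0.99 inside and 0.81 to 0.98 outside. In 0 of the 9 genes was its median 1.2-fold higher inside, as in 0% of all genes, so this line set no gene apart. The counts for focus and clonal fold are a description, and nothing is read from them. ACBD4 had the lowest median, 0.82 inside and 0.93 outside.

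Repeated tags were read from the tags of a peak divided by its score, which was read as counting at most 1 tag per position, the limit in the file's header. Over the whole list the median of this ratio was 0.999. Inside the 10 genes it was 1.01 (0.939 to 1.37), with the highest values at the strongest peaks: 1.37 at the ACBD4 peak of 246.0 normalised tags, 1.27 at the BAIAP2 peak of 209.0 and 1.23 at the ARHGAP22 peak of 210.6. For all other peaks with 120 to 300 normalised tags the median was 1.15 and the 95th percentile 1.32, so only the ACBD4 peak exceeded that level.

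REC8, CTCF, STAG3 and RAD21, genes of cohesin subunits and of CTCF itself, were set beside the 10 in the same measures. They stood above them by highest local background over the 6 closest outside peaks, but over the flanks NRG1 stood at rank 4 and STAG3 at 7, and the ratio of medians in STAG3 was 1.08, below all 10. Peaks inside REC8 had 4.88 to 6.01 tags per position-limited tag and focus ratios of 0.524 to 0.667. In CTCF the ratio of tags reached 2.02. The CTCF peak of highest background, 33.1, had 700.9 normalised tags and no called peak within 5 kb. It stood at 25.9 times the predicted background, which leaves the peak's own strength out. The highest background of REC8 was 2.38 times the predicted value, that of STAG3 2.15 times and that of RAD21 1.27 times. Among peaks of 60 to 120 normalised tags, the median focus ratio was 0.883 for 12 peaks inside the 10 genes, against 0.879 for 13 peaks inside these 4 genes. It was 0.9 for the other peaks of that strength, above both. The lowest was 0.839 inside the 10 genes, against 0.596 inside the 4 genes and 0.622 in the other peaks of that strength. RAD21 peaks, at 0.729 to 0.945, spanned much the same range as those of the 10 genes. At that strength the median of tags per position-limited tag was 1.06 against 1.19. For 3113 other peaks of that strength the median was 1.05. These differences were not tested.

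**Figure D4:**
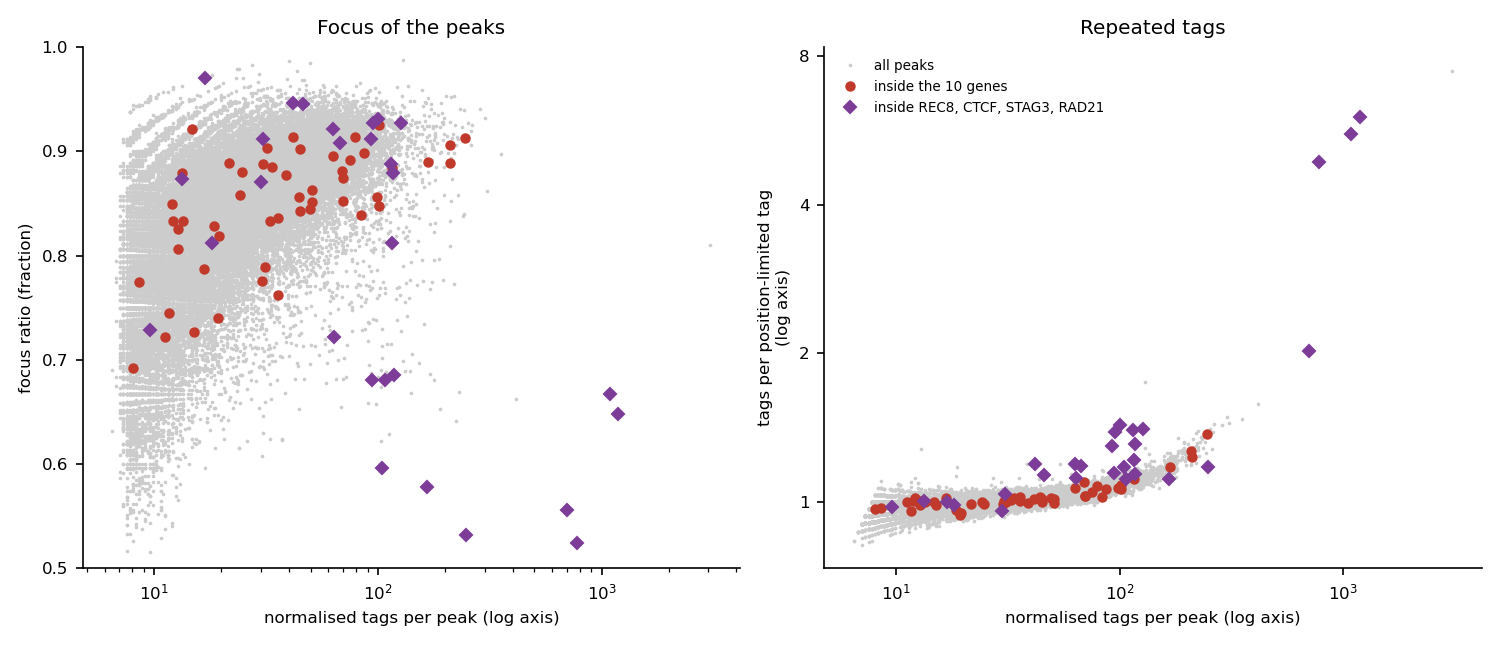
Focus ratio (left) and tags per position-limited tag (right, log axis) against normalised tags per peak (log axis) for all peaks (grey), peaks inside the 10 genes (red) and peaks inside REC8, CTCF, STAG3 and RAD21 (purple). The red points stay between 0.692 and 0.925 in focus and at or below 1.37 in repeated tags, and the REC8 points reach 6.01.

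Relatives and partners of the 10 genes were measured in the same way. Of 51 genes listed for their families or pathways, all found in the table, 13 had at least 3 peaks inside and 1 outside. In 0 of these 13 was the median background 2-fold higher inside, against 4.45% of all genes. Among so few genes a count of 0 is close to that share, and nothing is read from it. The median of their ratios was 0.924. Values for NRG2 were 2.01 inside and 1.87 outside, for the NRG1 receptor gene ERBB4 1.01 and 0.926, for IGF1R 1.56 and 1.82, and for the neurturin receptor gene RET 1.70 and 1.84. A further 38 genes, among them INSR and GDNF, had too few peaks to be compared.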

How the data were processed

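CTCF ChIP-seq peaks of asynchronous replicate 1 were used. Data of 3 further samples were not analysed here. The submitters' processing notes name Bowtie2, HOMER and hg38. The version of each tool was not given in the sources used here. The peak caller findPeaks, per the file headers, ran in factor style on that library alone (19210460 tags), with 349 bp peaks, a false discovery rate of 0.001, and at least 4-fold and p 0.0001 over the local 10 kb.

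Per the file headers, the deposited tag signal is scaled to 10000000 tags, and peaks were called with at most 1 tag per position. The deposited peak score was read as following that limit and the tag signal as not following it, from their values. The deposited focus ratio is a fraction, and the deposited fold over the local region and clonal fold are ratios, all from the authors' caller. The deposited p-value was not used for any result.

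Local background was computed here as normalised tags divided by the fold. Peaks were assigned by their midpoints to the gene with 1 kb (inside) or the next 100 kb (outside), with genes and promoters from RefSeq GRCh38.p14. Medians were compared as a description, at folds of 2, 1.5 and 1.2 and a focus difference of 0.05. Genes needed at least 3 peaks inside and 1 outside. Named are the 10 genes, REC8, CTCF, STAG3, RAD21, neighbours in the ranking or beside a named peak, and, chosen after their values were seen, some of the relatives. Some values are not reported here. Members and lists were chosen with earlier results of these data known. The per-gene comparison was tested on simulated data in which every peak of a chosen gene was raised. Those data held no effect of neighbours, so a raised pair or run of peaks, as in these genes, was not tried. Software was pandas 2.3.3, numpy 2.4.6, matplotlib 3.10.9 and scipy 1.17.1 under Python 3.11.15.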

Additional observations from a re-analysis of the deposited data

How the results depend on the processing

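No paired analysis was possible because only 1 library had values. Counts are over the genes measured in each setting and are not subsets of the main count. Past the 2-fold local background were 6 of 9 genes, against 4.45% of all genes. With at least 5 peaks required it was 2 of 4 (1.91% of all genes). When only peaks with no peak within 5 kb were kept it was 0 of 3 (0.239%), so few genes of any kind passed there. Past 1.5-fold in tags were 5 of 9, against 19.3% of all genes. Among peaks of median score or higher it was 2 of 6 (12.7%), and with at least 5 peaks 2 of 4 (18.2%). With the highest peak it was 8 of 9 (59.1%). The focus count was 1 of 9, against 21.3% of all genes. With no margin it was 0 of 6 (20.7%), and among peaks of median score or higher 0 of 6 (11.3%). With at least 5 peaks it was 0 of 4 (16.9%), and with the lowest peak 5 of 9 (69.2%). The non-overlap count was 2 of 9, against 7.14% of all genes. With a 5 kb margin it was 4 of 10 (8.2%), and with 50 kb flanks 4 of 9 (11.5%). With outside peaks within 10 kb left out it was 4 of 9 (8.71%). It was 1 of 9 with 200 kb flanks (3.39%) and 1 of 4 with at least 5 peaks (4.15%).

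Chosen after seeing the data were 3 further alternatives. With the nearest 6 peaks farther out as outside, 3 of 9 genes were past the fold in tags, against 17.9% of all genes. In that setting 1 of 9 did not overlap, against 2.7%. With at least 2 peaks inside, 1 of 25 related genes was past 2-fold, against 5.63% of all genes. With the measured background of called neighbours taken off, 1 of 9 genes was past 2-fold (IRS1, which was not past it before), against 0.398% of all genes. The ratio was then 0.598 in ACBD4, 0.675 in BCL6 and 0.962 in NRTN. Depth limits weak peaks most: at the NRG1 peaks with 12.8 normalised tags the interval was 8.42 to 19.2, for counting error only.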
